A study of Spodoptera exigua with 2 samples.

Results

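The hemocytes described here are those in which SPEXI_LOCUS5543 and SPEXI_LOCUS5542, both without a functional name, took a large part of the transcripts. A cell was included when it had at least 200 genes and at least 150 unique molecular identifiers (UMIs, which count captured mRNA molecules) of both loci per 10000 UMIs of the cell. Cells with 1000 or more per 10000 UMIs of procathepsin H plus cysteine proteinase 1-like were left out, as were cells with 200 or more of the prophenoloxidases PPO1 plus PPO2. By this rule 1526 of 27364 cells were taken, called LOCUS5543-high here, 202 of 12524 from immune-challenged larvae and 1324 of 14840 from naïve larvae. The levels of the 6 genes in the rule, and everything measured in the same cells, are therefore descriptions and not tests.

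Hemocytes are the blood cells of insects and circulate in the hemolymph. In Lepidoptera, granulocytes and plasmatocytes attach to and enclose foreign bodies, oenocytoids carry the prophenoloxidases that start melanization, and spherulocytes hold large inclusions. Bacterial cell wall fragments are known to switch on antimicrobial peptide genes such as cecropins in hemocytes and in the fat body.

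Fifth-instar larvae of the beet armyworm *Spodoptera exigua* were used in both groups. Challenged larvae each received 140000 heat-killed cells of *Escherichia coli* TOP10 in a proleg, naïve larvae received PBS, and hemolymph was taken 8 h later. Hemocytes of each group were washed, strained and captured as 1 10x Chromium 3′ library, so that each condition is a single pool of animals and every interval below covers counting error only. No test between conditions was possible, and cells of 1 library were not treated as replicates. The challenged library held 94500088 UMIs in 12530 barcodes and the naïve library 81253288 UMIs in 14866 barcodes, and the median depth of the kept cells was 5282 UMIs in the challenged and 3347 UMIs in the naïve library. The libraries shared 44 barcodes, of which 5 were on LOCUS5543-high cells of either library and 0 on LOCUS5543-high cells of both.

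Both loci were matched by the study to 1 and the same unnamed protein record, so reads of near-identical copies could have been split between them and their separate levels are uncertain. Every LOCUS5543-high cell held UMIs of both. Across these cells the 2 loci had a Spearman correlation of 0.614 in the challenged and 0.849 in the naïve library, with depth shared between both measures. Over the LOCUS5543-high cells, SPEXI_LOCUS5543 had 1.10 UMIs for each UMI of SPEXI_LOCUS5542 in the challenged library and 1.43 in the naïve library.

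The rule is a range on a continuous scale rather than a gap in it. The median level of both loci was 248 per 10000 UMIs in the challenged cells (150 to 2099) and 490 in the naïve cells (150 to 3544). Between 150 and 200 per 10000 lay 62 challenged and 157 naïve LOCUS5543-high cells. Just below the limit, between 100 and 150, lay 159 challenged and 260 naïve cells that were otherwise within the rule. The limit on cathepsin genes left out 10 challenged and 42 naïve cells that reached the minimum, and the limit on PPO genes left out 4 challenged and 12 naïve cells.

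**Figure D1:**
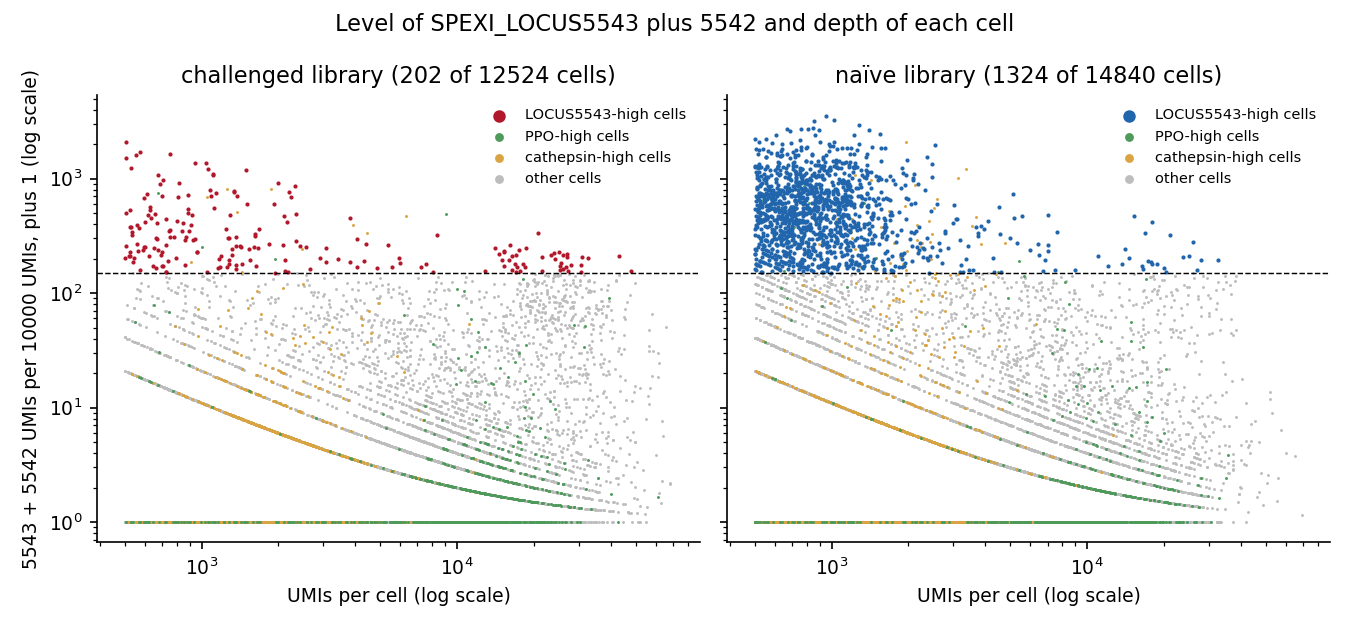
Each point is a cell, with its UMIs on the x axis (log scale) and the UMIs of SPEXI_LOCUS5543 plus SPEXI_LOCUS5542 per 10000, plus 1, on the y axis (log scale), for the challenged library on the left and the naïve library on the right. The dashed line is the minimum of 150 per 10000. The 1324 naïve cells above it crowd below 1500 UMIs, while 51 of the 202 challenged cells lie above 5000 UMIs.

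The LOCUS5543-high cells made up 1.61% of the challenged library (95% exact Clopper-Pearson interval 1.40 to 1.85%) and 8.92% of the naïve library (8.47 to 9.39%). The challenged share was 0.181 times the naïve share (exact conditional interval 0.155 to 0.210). These cells held 21.9% of all SPEXI_LOCUS5543 UMIs of the challenged library and 61.0% of those of the naïve library. For SPEXI_LOCUS5542 the parts were 20.6% in the challenged and 57.8% in the naïve library.

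The share followed depth in both libraries. Among cells of 500 to 699 UMIs, 46 of 453 challenged cells (10.2%) and 415 of 1220 naïve cells (34.0%) were LOCUS5543-high, a ratio of 0.299 (0.215 to 0.405). At 1000 to 1499 UMIs the shares were 3.18% of challenged and 18.8% of naïve cells, a ratio of 0.170 (0.115 to 0.243). The intervals of the ratio lay below 1 at every depth under 3000 UMIs. Beyond it they covered 1, and among cells of 10000 or more UMIs 43 of 3046 challenged cells (1.41%) and 23 of 2313 naïve cells (0.994%) met the rule, a ratio of 1.42 (0.837 to 2.47).

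**Figure D2:**
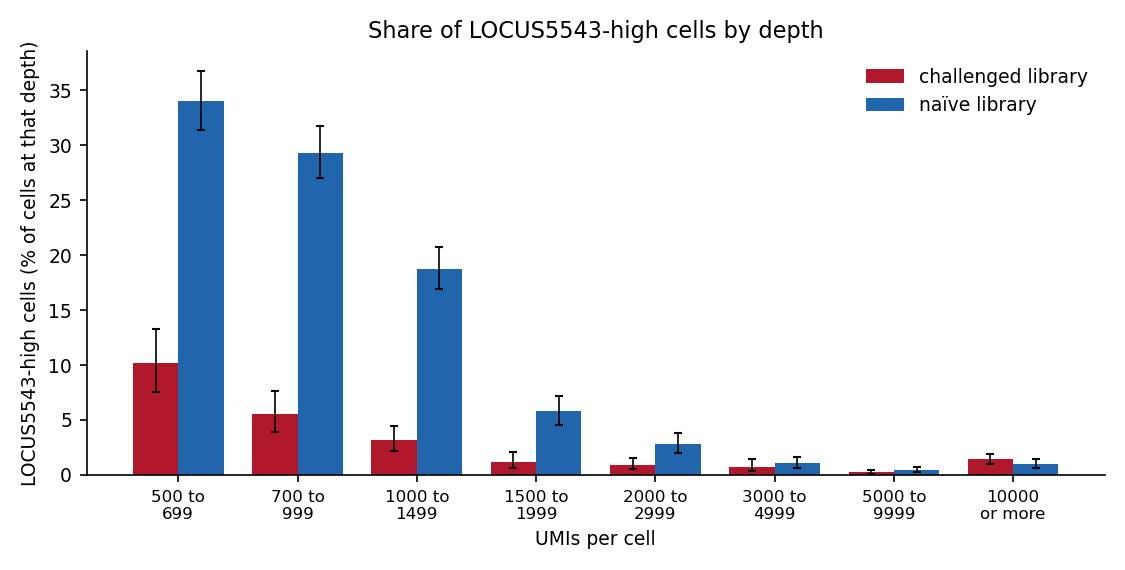
Bars give the share of LOCUS5543-high cells (% of the cells at that depth, y axis) by UMIs per cell (x axis), challenged library left and naïve library right in each pair, with 95% Clopper-Pearson intervals. The share reaches 10.2% of challenged and 34.0% of naïve cells at 500 to 699 UMIs and lies between 0.237% and 1.41% in both libraries from 3000 UMIs.

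Because a fixed rate needs more UMIs in a deeper cell, the rule was also applied after every cell had been thinned at random to 500 UMIs. It then took 239 challenged cells (1.91%) and 1343 naïve cells (9.05%), of which 178 challenged and 1279 naïve cells had met it at full depth. No barcode of either library had fewer than 500 UMIs, so cells below that depth were not analysed here.

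The label "small" was checked against depth, since the size of the cells was not measured. The median was 1318.5 UMIs and 750 genes in the challenged LOCUS5543-high cells (quartiles 724 and 5246 UMIs), against 843.5 UMIs and 583 genes in the naïve ones (657.75 and 1158 UMIs). In the naïve library 1150 of them (86.9%) had 500 to 1500 UMIs and 39 (2.95%) had over 5000. In the challenged library 113 (55.9%) had 500 to 1500 UMIs and 51 (25.2%) had over 5000, with a median of 18179 UMIs. A shallow majority was therefore present in both libraries, and a deep group was a much larger part of the challenged cells than of the naïve ones. These 51 deep cells held 84.1% of the UMIs of all challenged LOCUS5543-high cells, while the 39 deep naïve cells held 30.1% of those of the naïve ones. Levels are therefore given below for the shallow cells, of 500 to 1500 UMIs, and for the deep cells, of over 5000 UMIs.

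The level of both loci differed by depth as well. In the shallow cells the median was 310 per 10000 in the challenged and 531 in the naïve library. In the deep cells it was 195 in the challenged and 208 in the naïve library. A level of 500 or more was reached by 32 of the 113 shallow challenged cells and 606 of the 1150 shallow naïve cells, against 0 of 51 and 1 of 39 deep cells. Of the 51 deep challenged cells 28 lay between 150 and 200, and 98 further challenged cells of that depth lay just below the limit. Summed over the shallow cells, both loci took 4.71% of the UMIs in the challenged and 6.52% in the naïve library, against 0.117% and 0.198% in other cells of the same depth within the limits on cathepsin and PPO genes.

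Shallow LOCUS5543-high cells had many genes for their depth. Thinned to 500 UMIs, they had a median of 366 genes in the challenged library (interval of the median 360 to 376) and 385 in the naïve library (383 to 386). Other cells of 500 to 1500 UMIs had 333 (330 to 337) in the challenged and 355 (351 to 359) in the naïve library. Cathepsin-high cells of the same depth had 238 in the challenged and 226 in the naïve library. LOCUS5543-high cells between these depths, of over 1500 and up to 5000 UMIs, had 317 (287 to 347) in the challenged and 377 (363 to 384) in the naïve library, against 303 (300 to 306) and 281 (279 to 284) in other cells of that depth. The deep LOCUS5543-high cells had 307 genes (303 to 314) in the challenged and 319 (305 to 327) in the naïve library, against 302 (301 to 303) and 294 (293 to 295) in other deep cells. The naïve LOCUS5543-high cells thus had more genes than other cells in all 3 ranges of depth, while the intervals of the challenged cells and other cells overlapped in the middle range and those of the deep cells met at 303. Without thinning, the shallow cells had 0.663 genes per UMI in the challenged and 0.704 in the naïve library.

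**Figure D3:**
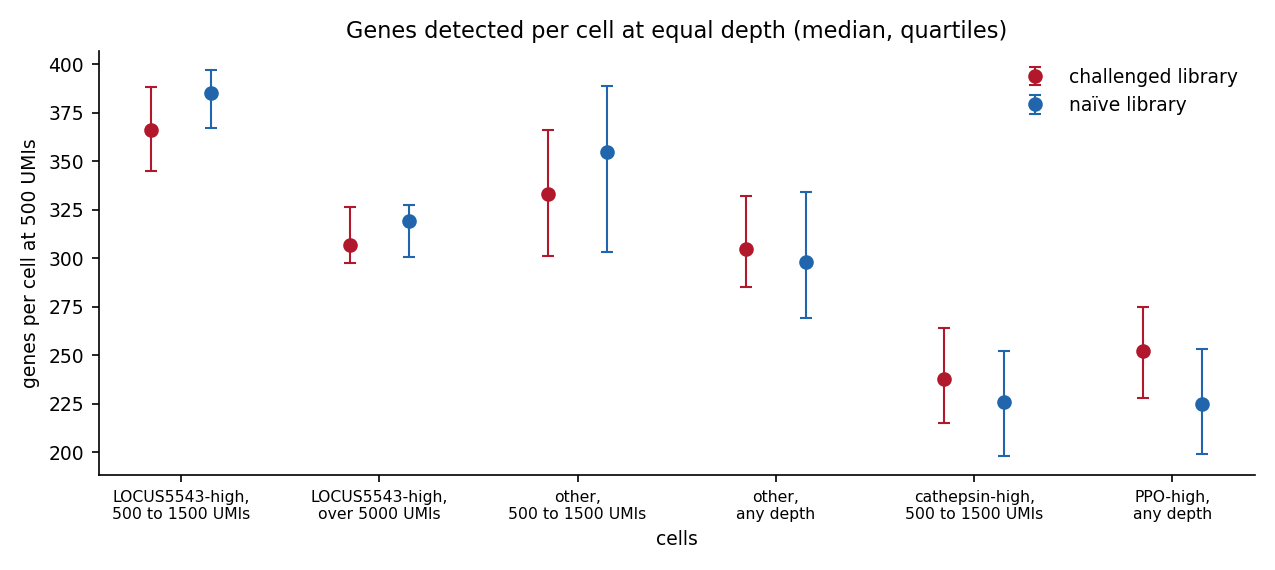
Points are median genes per cell (y axis) after thinning each cell to 500 UMIs, with bars from the lower to the upper quartile, for 6 sets of cells (x axis), challenged library left and naïve library right in each pair. Shallow LOCUS5543-high cells have the highest medians, 366 in the challenged and 385 in the naïve library.

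In the clustering of all pooled cells (Seurat, 33 clusters at a resolution of 0.8), the LOCUS5543-high cells did not form a cluster of their own. Cluster 1 held 95 challenged and 998 naïve ones, 71.6% of all, and had 2838 cells in total with a median of 887.5 UMIs. Cluster 16 held 8 challenged and 237 naïve ones. Cluster 10, a cluster of deep cells with a median of 17527 UMIs, held 41 challenged and 18 naïve ones, and cluster 9 held 33 challenged and 17 naïve ones. The LOCUS5543-high cells of cluster 1 had median depths of 882 UMIs in the challenged and 795 UMIs in the naïve library, and those of cluster 10 of 21558 and 17563.5 UMIs. Shallow and deep cells were thus led by separate clusters. Doublet calls by Scrublet numbered 1 among the challenged and 24 among the naïve LOCUS5543-high cells, of which 11 were among the 39 deep naïve cells.

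The genes whose levels were most like those of both loci across all 27364 cells were SPEXI_LOCUS7341, SPEXI_LOCUS1133, SPEXI_LOCUS8337 and SPEXI_LOCUS1028. They had Pearson correlations of 0.517, 0.485, 0.455 and 0.449 on the log scale. These values are a description over pooled cells of both libraries and all depths, without matching on library or depth. The same 4 loci led in the naïve library too, where SPEXI_LOCUS7341 had a correlation of 0.602, but in the challenged library it had 0.309 and other loci led. There SPEXI_LOCUS11459, SPEXI_LOCUS11457, SPEXI_LOCUS11454 and SPEXI_LOCUS11453 had 0.429, 0.404, 0.366 and 0.365, against 0.135, 0.134, 0.132 and 0.145 in the naïve library. Summed over shallow LOCUS5543-high cells SPEXI_LOCUS7341 had 10680 CPM (counts scaled to 1000000 UMIs) in the challenged and 8053 CPM in the naïve library. In other cells of that depth it had 3964 CPM in the challenged and 5611 CPM in the naïve library, and in cathepsin-high cells of that depth 280 and 296 CPM. Deep LOCUS5543-high cells had 329 CPM in the challenged and 687 CPM in the naïve library. SPEXI_LOCUS7341 was therefore low in shallow cathepsin-high cells. Within the limits on cathepsin and PPO genes it was high in shallow cells inside and outside the rule, and not in deep cells that met it. The opposite held for SPEXI_LOCUS11459, with 2930 CPM in the challenged and 3496 CPM in the naïve deep LOCUS5543-high cells, against 326 and 218 CPM in other deep cells. Its ratio there was 8.99 (8.65 to 9.34) in the challenged and 16.1 (15.3 to 16.8) in the naïve library, and those of the other 3 loci that led in the challenged library lay between 9.10 and 26.7. In shallow LOCUS5543-high cells SPEXI_LOCUS11459 had 145 CPM in the challenged and 37.1 CPM in the naïve library.

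At 500 UMIs, a UMI of SPEXI_LOCUS7341 was found in 86.7% of shallow challenged and 94.6% of shallow naïve LOCUS5543-high cells (88.5% and 98.2% unthinned), with median depths of 751 and 781.5 UMIs. Other cells of 500 to 1500 UMIs within the limits on cathepsin and PPO genes had median depths of 896 and 835 UMIs. Their shares were 55.9% in the challenged and 62.9% in the naïve library (65.0% and 69.6% unthinned). In cathepsin-high cells of 500 to 1500 UMIs, with median depths of 1245 and 1131.5 UMIs, the shares were 12.2% in the challenged and 9.89% in the naïve library (22.8% and 18.02% unthinned).

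The following levels compare shallow LOCUS5543-high cells with other cells of 500 to 1500 UMIs within the same limits on cathepsin and PPO genes, 113 against 1321 cells in the challenged and 1150 against 2183 in the naïve library. Among 1861 genes with at least 100 CPM in the higher group in both libraries, 78 (4.19%) were at least 2-fold higher and 104 (5.59%) at least 2-fold lower in the LOCUS5543-high cells of both libraries. With the whole interval past 2-fold in both, 20 (1.07%) were higher and 31 (1.67%) lower. The median ratio was 1.05 in the challenged and 1.09 in the naïve library. The TMM scaling of edgeR moved all ratios by -0.48 (log2) in the challenged and -0.41 in the naïve library and gave 17 higher and 280 lower. Of 34 listed marker genes that entered this count, 0 were 2-fold higher and 9 were 2-fold lower in both libraries, with a median ratio of 0.668 when the ratio nearer 1 of both libraries was taken for each gene. The counts of higher genes include SPEXI_LOCUS5543 and SPEXI_LOCUS5542, which the rule itself made higher. These cells were chosen on 6 genes of the same table, so nothing beyond a description is read from these counts.

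Oenocytoids are marked by PPO1 and PPO2, the zymogens of the melanizing enzyme, which the study listed among the leading genes of a challenged oenocytoid cluster. It listed SPEXI_LOCUS5543 and SPEXI_LOCUS5542 among the leading markers of naïve clusters that it named oenocytoid, but not of the challenged ones. In shallow LOCUS5543-high cells PPO1 had 5267 CPM in the challenged and 3155 CPM in the naïve library. Other cells of that depth had 3517 CPM in the challenged and 2653 CPM in the naïve library, ratios of 1.498 (1.36 to 1.64) and 1.19 (1.14 to 1.24). PPO2 had ratios of 1.60 (1.39 to 1.84) in the challenged and 1.28 (1.201 to 1.37) in the naïve library. The naïve ratios were below 1 with the TMM scaling, 0.89 for PPO1 and 0.96 for PPO2. PPO-high cells, which the rule left out, had 48681 CPM of PPO1 in the challenged and 42849 CPM in the naïve library, and 156 and 177 CPM of SPEXI_LOCUS5543. Since the limit on PPO genes bounds these levels, the name oenocytoid was not used for the LOCUS5543-high cells.

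A UMI of PPO1 was present at 500 UMIs in 90.3% of shallow challenged and 77.7% of shallow naïve LOCUS5543-high cells (96.5% and 90.1% unthinned). Other shallow cells had it in 77.7% in the challenged and 69.3% in the naïve library (91.1% and 83.7% unthinned). Cathepsin-high cells of that depth had it in 63.0% in the challenged and 46.3% in the naïve library (88.4% and 71.4% unthinned). PPO1 UMIs were thus spread over cells of all kinds, and the part of free RNA in these shares was not tested.

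Cathepsin genes code for lysosomal cysteine proteases and lead the cells called cathepsin-high here. All 4 genes of this list were at least 2-fold lower in both libraries. Procathepsin H had 3428 CPM in the challenged and 2051 CPM in the naïve LOCUS5543-high cells, against 7321 and 6181 CPM in other cells, ratios of 0.47 (0.42 to 0.52) and 0.33 (0.32 to 0.35). Sodium/calcium exchanger regulatory protein 1 had ratios of 0.23 (0.20 to 0.25) in the challenged and 0.23 (0.22 to 0.24) in the naïve library. Procathepsin H and cysteine proteinase 1-like were limited by the rule in both sets of cells, whereas the exchanger regulator was not limited directly. It had 71464 CPM in the challenged and 77418 CPM in the naïve cathepsin-high cells of that depth, which the rule left out of both sets. Unthinned, it was found in 80.5% of challenged and 79.7% of naïve LOCUS5543-high cells, against 81.3% and 78.8% of other shallow cells. Its share of cells was thus alike and only its level was lower. At 500 UMIs a UMI of procathepsin H was found in 69.0% of challenged and 53.4% of naïve LOCUS5543-high cells (81.4% and 71.2% unthinned). In other shallow cells the shares were 58.7% in the challenged and 53.3% in the naïve library (72.3% and 64.9% unthinned), so that only the level and not the share of cells was lower in LOCUS5543-high cells. Among PPO-high cells it was found in 119 of 850 challenged and 81 of 720 naïve cells, which had median depths of 11943.5 and 9478.5 UMIs (75.5% and 59.2% unthinned).

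All 3 genes of the hemicentin list were at least 2-fold lower in both libraries. Hemicentins are extracellular matrix proteins with immunoglobulin repeats. Hemicentin 2-like had 20.8 CPM (2 UMIs) in the challenged and 92.8 CPM (90 UMIs) in the naïve LOCUS5543-high cells, against 1384 and 2671 CPM in other cells of that depth. Its ratio was 0.015 (0.0018 to 0.054) in the challenged and 0.035 (0.028 to 0.043) in the naïve library. BLL4 had ratios of 0.0790 (0.0215 to 0.203) in the challenged and 0.0390 (0.0262 to 0.0559) in the naïve library, and hemicentin 1-like 0.237 (0.166 to 0.330) and 0.195 (0.174 to 0.218). In other shallow cells hemicentin 2-like came from 107 of 1321 challenged and 211 of 2183 naïve cells, so that few cells carried it there too. The share of cells with a UMI was 1.77% in LOCUS5543-high and 8.10% in other shallow challenged cells. In the naïve library it was 7.30% (5.87 to 8.96%) against 9.67% (8.46 to 10.98%). The naïve cell with most UMIs held 2 among LOCUS5543-high and 538 among other shallow cells, so the naïve ratio rested largely on rich other cells. Hemicentin 1-like was found in 23.9% (16.4 to 32.8%) of LOCUS5543-high and 28.5% (26.0 to 31.0%) of other shallow challenged cells. In the naïve library its shares were 21.8% (19.5 to 24.3%) and 30.9% (29.0 to 32.9%). The challenged cell with most of its UMIs held 5 among LOCUS5543-high and 186 among other shallow cells.

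Genes of the SPARC list, with the matrix protein SPARC and the clotting protein hemocytin, were below other shallow cells in the naïve library. SPARC had a ratio of 0.48 (0.46 to 0.51) there, but 0.94 (0.79 to 1.10) in the challenged library. At 500 UMIs its UMIs were found in 57.5% of challenged and 51.0% of naïve shallow LOCUS5543-high cells (70.8% and 67.1% unthinned). Other shallow cells had it in 40.7% in the challenged and 49.0% in the naïve library (55.5% and 61.4% unthinned). The share of cells with SPARC was thus not lower in LOCUS5543-high cells, only the naïve level. Hemocytin had ratios of 0.555 (0.447 to 0.680) in the challenged and 0.337 (0.315 to 0.361) in the naïve library. Unthinned, it was found in 53.1% of challenged and 54.6% of naïve LOCUS5543-high cells, against 41.9% and 50.3% of other shallow cells. For SPEXI_LOCUS3619 of the same list the shares were 73.5% and 82.8%, against 74.2% and 84.3%. All 4 genes of the list were past 2-fold lower in the naïve library and 0 of 4 in the challenged library. The summed levels of the 3 muscle genes, which code for parts of the contractile apparatus, were also below other shallow cells. Troponin T had 1 UMI in the challenged and 73 UMIs in the naïve LOCUS5543-high cells, ratios of 0.0513 (0.00129 to 0.288) and 0.553 (0.421 to 0.719). Few cells carried it in either set, 16 of 1321 other shallow challenged cells with 84 of 248 UMIs in 1 of them. In the naïve library its share of cells with a UMI was the higher in LOCUS5543-high cells, 4.09% (3.02 to 5.40%) against 2.29% (1.70 to 3.01%) of other shallow cells.

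The 7 genes of protein synthesis, 6 ribosomal proteins and an elongation factor 1 alpha-like gene, were all lower in both libraries, each with its interval below 1 and none past 2-fold. The median ratio was 0.760 in the challenged and 0.655 in the naïve library. Ribosomal protein S23 had 5631 CPM in the challenged and 5186 CPM in the naïve LOCUS5543-high cells, against 7404 and 7443 CPM in other cells of that depth. Heat shock 70 cognate 4, a constitutive chaperone, had ratios of 0.62 (0.55 to 0.70) in the challenged and 0.42 (0.40 to 0.43) in the naïve library.

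Of the plasmatocyte list, 4 of the 7 genes had between 0 and 2 UMIs in the shallow challenged and between 0 and 35 UMIs in the shallow naïve LOCUS5543-high cells. Paired mesoderm homeobox 2A-like, a homeobox gene, had 353 CPM in the challenged and 190 CPM in the naïve cells, ratios of 1.08 (0.735 to 1.53) and 0.676 (0.569 to 0.801), and TMM scaling took the challenged ratio to 0.77. Of the list for the cluster that the study called spherulocytes, calphotin-like had ratios of 1.12 (0.696 to 1.71) in the challenged and 1.16 (1.06 to 1.27) in the naïve library, and TMM scaling took both below 1, to 0.80 and 0.87. In the other shallow challenged cells 188 of its 262 UMIs were in 1 cell. In the naïve ones 277 of 1312 were in 1 cell. Calphotin-like was found in 9 of 113 shallow challenged (7.96%, 3.71 to 14.6%) and 320 of 1150 shallow naïve LOCUS5543-high cells (27.8%, 25.3 to 30.5%). Other shallow cells had it in 38 of 1321 challenged (2.88%, 2.04 to 3.93%) and 290 of 2183 naïve cells (13.3%, 11.9 to 14.8%). The naïve share of cells was thus higher in LOCUS5543-high cells, though the levels were close.

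Genes without a name had the largest ratios apart from the loci of the rule. SPEXI_LOCUS6993 had 16 UMIs in the challenged and 138 UMIs in the naïve LOCUS5543-high cells, ratios of 22.6 (9.41 to 58.1) and 18.3 (10.7 to 33.5). SPEXI_LOCUS10956 had ratios of 5.45 (3.23 to 8.94) in the challenged and 5.00 (4.11 to 6.11) in the naïve library. Among the lowest unnamed ones, SPEXI_LOCUS6166 had 2 UMIs in the challenged and 7 UMIs in the naïve cells, ratios of 0.129 (0.0155 to 0.473) and 0.0482 (0.0192 to 0.101). SPEXI_LOCUS1136 had 2 UMIs in the challenged and 24 UMIs in the naïve cells, ratios of 0.0684 (0.00825 to 0.249) and 0.133 (0.0839 to 0.201).

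**Figure D4:**
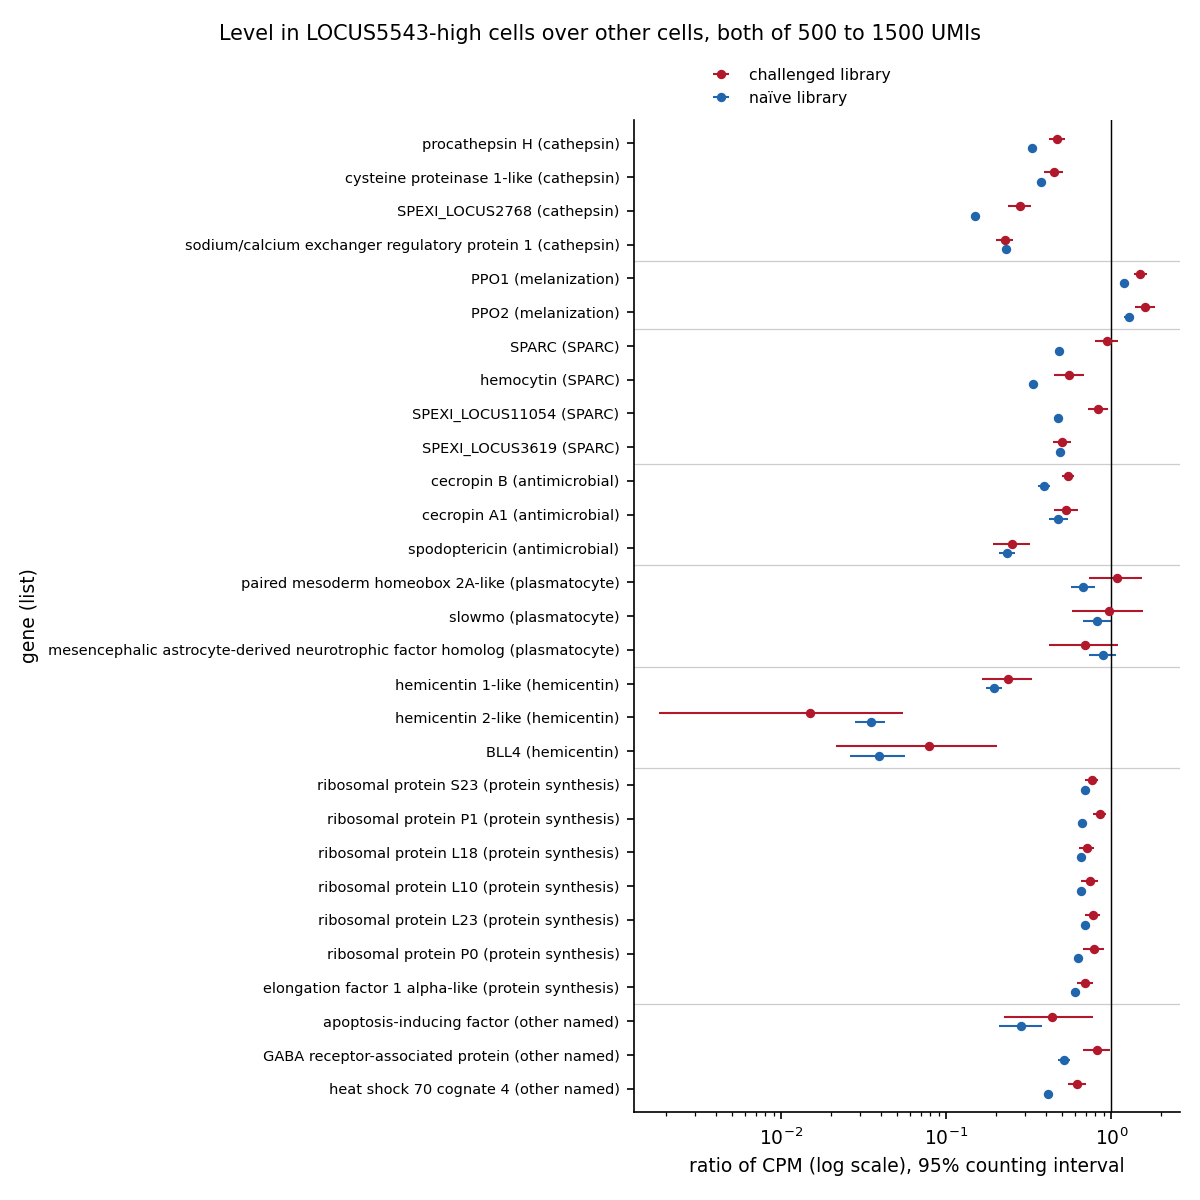
Ratio of CPM (x axis, log scale) in shallow LOCUS5543-high cells over other cells of 500 to 1500 UMIs for listed genes (y axis, with their list) with at least 100 CPM in the higher group in both libraries, and 95% counting intervals, challenged library above naïve library in each row. Hemicentin 2-like lies at 0.015 in the challenged and 0.035 in the naïve library, the ribosomal proteins lie between 0.63 and 0.85, and PPO1 and PPO2 are above 1, though in the naïve library below 1 with TMM scaling.

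Among the lists, antimicrobial genes had the highest challenged over naïve ratios in the LOCUS5543-high cells. Over cells of any depth, cecropin B, a peptide that lyses bacterial membranes, had 8877 CPM in the challenged and 722 CPM in the naïve cells, a ratio of 12.3 (11.6 to 13.0). Cecropin A1 had 2782 CPM in the challenged and 337 CPM in the naïve cells, a ratio of 8.25 (7.56 to 9.003). The antimicrobial list summed to 12583 CPM in the challenged and 1517 CPM in the naïve cells, and 3 of its 4 genes were past 2-fold.

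Within shallow cells the list kept its direction, with 7823 CPM in the challenged and 1362 CPM in the naïve cells. Cecropin B had 520 UMIs in 107 of 113 challenged cells and 693 UMIs in 493 of 1150 naïve cells, a ratio of 7.56 (6.73 to 8.48). Other cells of that depth had a ratio of 5.38 (5.18 to 5.58). At 500 UMIs a UMI of cecropin B was found in 87.6% of challenged and 30.0% of naïve LOCUS5543-high cells (94.7% and 42.9% unthinned), with the median depths given above. Other shallow cells had it in 82.4% in the challenged and 35.5% in the naïve library (93.1% and 47.0% unthinned). It was found in 56.9% of challenged and 12.6% of naïve cathepsin-high cells of that depth (81.3% and 23.5% unthinned). The challenged and naïve shares were thus far apart in other shallow cells and in cathepsin-high cells as well.

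The level of cecropin B was nevertheless lower in LOCUS5543-high than in other shallow cells, 5402 against 9870 CPM in the challenged and 715 against 1836 CPM in the naïve library. PGRP-LB, a peptidoglycan recognition protein known in *Drosophila* to dampen the response, had the lowest ratio of the list in the challenged library, 0.107 (0.0719 to 0.153). It had 312 CPM (30 UMIs) in the challenged and 22.7 CPM (22 UMIs) in the naïve shallow LOCUS5543-high cells, a ratio of 13.7 (7.66 to 25.0). Other shallow cells had 2921 CPM in the challenged and 72.2 CPM in the naïve library, a ratio of 40.4 (34.1 to 48.3). The intervals of 13.7 and 40.4 do not overlap. Unthinned, PGRP-LB was found in 22.1% of challenged and 1.91% of naïve LOCUS5543-high cells, against 26.6% and 2.24% of other shallow cells. The challenged cell with most of its UMIs held 4 among LOCUS5543-high and 104 among other shallow cells. These cells thus differed in the level of PGRP-LB more than in the share of cells with it. In deep LOCUS5543-high cells the challenged over naïve ratio of PGRP-LB was 1.15 (0.792 to 1.69). Spodoptericin, another antimicrobial peptide, had a ratio of 1.87 (1.40 to 2.46) in LOCUS5543-high and 1.74 (1.65 to 1.83) in other shallow cells.

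Over LOCUS5543-high cells of any depth, 2022 genes reached 100 CPM in 1 or both libraries. Of these, 129 (6.38%) were at least 2-fold higher and 543 (26.9%) at least 2-fold lower in the challenged cells, with a median ratio of 0.877. With the whole interval past 2-fold, 70 (3.46%) were higher and 392 (19.4%) lower. With TMM scaling, which moved all ratios by 0.64 (log2), 574 were higher and 259 lower. Among 30 listed genes in this count 4 were higher and 8 lower, with a median of 1.09. The larger number of lower than of higher genes was not found in shallow cells. Among these, of 2268 genes, 179 (7.89%) were higher and 145 (6.39%) lower, with a median ratio of 0.980, and 31 listed genes had 4 higher and 3 lower. Among deep cells, of 1593 genes, 57 (3.58%) were higher and 88 (5.52%) lower, and 31 (1.95%) and 53 (3.33%) with the whole interval. The 28 listed genes in the deep count had 4 higher and 8 lower, with a median ratio of 1.02. With the whole interval past 2-fold, 66 (2.91%) of the shallow cells' genes were higher and 9 (0.397%) lower. In other shallow cells 94 of 1896 genes (4.96%) were higher and 39 (2.06%) lower, and 48 (2.53%) and 20 (1.05%) with the whole interval. The 113 shallow challenged cells held 96257 UMIs in all, so 100 CPM was about 9.63 UMIs there, and single genes at that level were poorly measured.

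The ratios of melanization and cathepsin genes depended on the depth of the cells compared. PPO1 had a ratio of 0.514 (0.482 to 0.547) over challenged and naïve cells of any depth, but 1.67 (1.52 to 1.83) within shallow cells and 2.08 (1.73 to 2.52) within deep cells. PPO2 had 0.498 over all, 1.47 in shallow and 2.87 in deep cells. Without the cell with most UMIs of the gene in each library, the deep ratios were 1.72 for PPO1 and 1.86 for PPO2. Outside the rule the median ratio of both genes was also above 1, at 1.25 in other shallow cells and 1.31 in all remaining cells. PPO1 was at 536 CPM in the deep challenged cells, which held 84.1% of the challenged UMIs, and at 3155 CPM in the shallow naïve cells, which held 53.3% of the naïve UMIs. Procathepsin H had 1.67 (1.48 to 1.88) in shallow and 0.41 (0.37 to 0.45) in deep cells, where 581 of 721 challenged UMIs and 375 of 947 naïve UMIs were in 1 cell each, and its deep ratio was 0.133 without these cells.

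The genes of protein synthesis show the same dependence. Their ratios ran up to 2.13 (ribosomal protein P0) over cells of any depth, with a list sum of 66231 CPM in the challenged and 38195 CPM in the naïve cells. In shallow cells the sum was 27946 CPM in the challenged and 24839 CPM in the naïve library, with a median ratio of 1.09, and in deep cells 71010 and 63400 CPM, with a median of 1.10.

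The summed spherulocyte list was lower in challenged cells, with 322 CPM in the challenged and 1350 CPM in the naïve shallow cells. Of its 3 genes, 2 had intervals below 1 there. The interval of trypsin alkaline B, with 3 UMIs in the challenged and 58 UMIs in the naïve cells, was not below 1. In other shallow cells that gene was higher after challenge, with 153 and 96 UMIs, and 93 of the 153 were in 1 cell. Calphotin-like had 23 UMIs in the challenged and 766 UMIs in the naïve shallow cells, a ratio of 0.302 (0.191 to 0.457), against 0.314 (0.274 to 0.359) in other shallow cells, and 11 of the 23 were in 1 cell. SPEXI_LOCUS11234 had 5 UMIs in the challenged and 485 UMIs in the naïve shallow cells, a ratio of 0.104 (0.0336 to 0.244), against 0.400 (0.343 to 0.465) in other shallow cells. For troponin T the ratio was 0.138 (0.00345 to 0.793) in shallow LOCUS5543-high cells, and 1.49 (1.25 to 1.78) in other shallow cells. The challenged LOCUS5543-high values of these genes rest on 23 or fewer UMIs. The values of the other shallow cells rested on single cells as well, which held 188 of the 262 challenged UMIs of calphotin-like and 167 of the 218 of SPEXI_LOCUS11234. Without the cell with most UMIs in each library the ratios in other shallow cells were 0.112 for calphotin-like, 0.109 for SPEXI_LOCUS11234 and 1.22 for troponin T, and in shallow LOCUS5543-high cells 0.169 for calphotin-like and 0.069 for SPEXI_LOCUS11234.

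Of the unnamed genes, SPEXI_LOCUS3001 had 0 UMIs in the challenged and 243 UMIs in the naïve cells of any depth, and was at least 53.9-fold lower against a floor of 3 counts in the challenged library. Within shallow cells it had 0 and 217 UMIs, at least 7.18-fold lower. SPEXI_LOCUS11346 had 1 UMI in the challenged and 234 UMIs in the naïve cells of any depth, a ratio of 0.0064 (0.00016 to 0.036). Other shallow cells had ratios of 0.017 for SPEXI_LOCUS3001 and 0.074 for SPEXI_LOCUS11346, so that both were low throughout the challenged library.

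Some of the highest ratios rested on few cells, but cecropin B, also among the highest, had UMIs in 196 of 202 challenged cells. SPEXI_LOCUS11667 had 132 UMIs in the challenged and 10 UMIs in the naïve cells, and 130 of the 132 were in 19 deep cells. SPEXI_LOCUS408 had 536 UMIs in the challenged and 48 UMIs in the naïve cells, a ratio of 16.8 (12.5 to 23.02), with 210 of 508 UMIs of the deep challenged cells in 1 cell. In other shallow cells the ratio of SPEXI_LOCUS408 was 9.38, so it was higher in challenged cells outside the rule as well, and that of SPEXI_LOCUS11667 was 1.87. Within shallow cells SPEXI_LOCUS59 led, with 140 UMIs in the challenged and 19 UMIs in the naïve cells, but 62 of the 140 came from 1 cell and all of them from 11 cells. SPEXI_LOCUS60 had 110 UMIs in 13 challenged cells and 38 UMIs in 20 naïve cells.

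**Figure D5:**
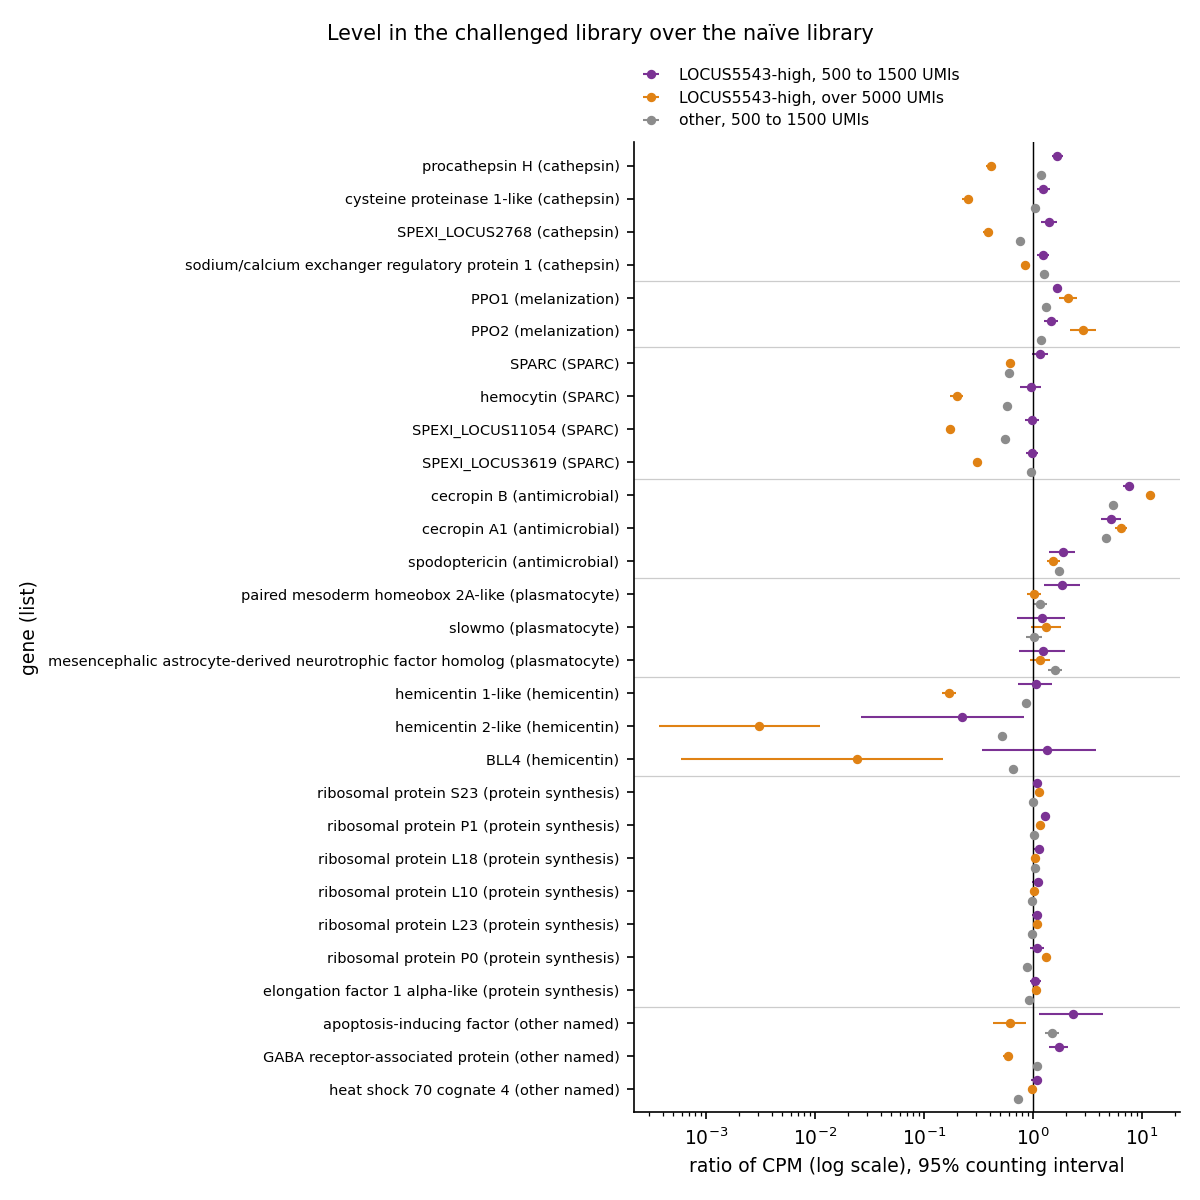
Ratio of CPM of the challenged over the naïve library (x axis, log scale) for the same genes (y axis, with their list), from top to bottom in each row for shallow LOCUS5543-high cells, deep LOCUS5543-high cells and other cells of 500 to 1500 UMIs, with 95% counting intervals. Cecropin B and cecropin A1 are above 4 in all sets, while procathepsin H is at 1.67 in shallow and 0.41 in deep LOCUS5543-high cells.

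The deep LOCUS5543-high cells were also set against cells of their own depth. Against other cells of over 5000 UMIs in both libraries, 32 of 1388 genes (2.31%) were at least 2-fold higher and 67 (4.83%) at least 2-fold lower. With the whole interval past 2-fold these were 20 (1.44%) and 35 (2.52%). Both counts of higher genes include SPEXI_LOCUS5543 and SPEXI_LOCUS5542, which the rule itself made higher. SPARC had 1980 CPM in the challenged and 3216 CPM in the naïve deep LOCUS5543-high cells, against 6594 and 7414 CPM in other deep cells. Cecropin B had 9749 CPM in the challenged and 815 CPM in the naïve deep LOCUS5543-high cells, against 23471 and 3394 CPM in other deep cells. PPO1 had 536 CPM in the challenged and 258 CPM in the naïve deep LOCUS5543-high cells, against 541 and 370 CPM. The genes of protein synthesis had a median ratio of 1.16 in the challenged and 0.909 in the naïve library, above the 0.760 and 0.655 of the shallow cells. Among deep challenged cells hemocytin had a ratio of 0.073 to other deep cells, and among deep naïve cells 0.37.

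Several values of the deep naïve cells rested on single cells. Of 350 hemicentin 2-like UMIs 344 were in 1 cell, and of 22 BLL4 UMIs all 22 were in 1 cell. The challenged over naïve ratio of hemicentin 2-like in deep cells, 0.0031, therefore rested on that cell, and 2 UMIs in the challenged and 6 UMIs in the other naïve cells remain without it. Leaving out the cell with most UMIs of the gene in each library moved hemocytin from 0.20 to 0.19, and cecropin B from 12.0 to 13.2.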

How the data were processed

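The authors captured hemocytes of each condition as 1 10x Chromium 3′ library and deposited filtered matrices of UMI counts, 13002 genes by barcode, written by Cell Ranger 7.2.0 per the file headers. The submitters' processing notes also name STAR 2.7.10a, Bowtie2 2.4.5 and Seurat 4.0, and the study's methods state another Cell Ranger version. The genome build is not given in the sources used here. The files do not pair loci with gene names, so names were taken from the study's marker tables.

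Cells with at least 200 genes were kept and no mitochondrial filter was applied. The members and gene lists were chosen with earlier results of these data known. UMIs were summed per library and set of cells and scaled to counts per 1000000 UMIs (CPM), and genes entered a comparison at 100 CPM in the higher group. Named were all genes of the lists, at most 2 unnamed loci in each direction among the 15 largest and 15 smallest ratios, and the 4 loci most correlated with SPEXI_LOCUS5543 plus SPEXI_LOCUS5542 over all cells and in each library. With 1 library per condition no test was run. Intervals (95%) are exact binomial for shares, exact Poisson for sums and exact conditional for ratios, and cover counting error only.

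Cells were thinned to 500 UMIs for comparisons at equal depth. The group of over 5000 UMIs was set after seeing the data. Doublets were called by Scrublet (scanpy 1.11.5) at an expected 0.8% per 1000 cells, set because the default called almost none, and were kept. It called 194 challenged cells (1.55%) and 432 naïve cells (2.91%). Clusters came from Seurat 5.3.0 in R 4.3.3 and TMM factors from edgeR 4.0.16. The sums and intervals were computed with scipy 1.17.1 and pandas 2.3.3 under Python 3.11.15 and tested on simulated data, with numpy 2.4.6 for thinning and matplotlib 3.10.9 for plots. Alternatives were other minimum levels, a minimum of 500 genes, thinning, TMM scaling, equal weight for each cell, 50 CPM, other cluster resolutions and shallow cells alone. Added after seeing the data were shallow cells for the list levels, deep cells for the counts of genes and thinning to 1000 UMIs for the share.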

Additional observations from a re-analysis of the deposited data

Results flagged for a closer look

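In 7 cases the challenged over naïve ratio lay on opposite sides of 1, intervals included, in 2 sets of cells. None of these differences was tested, since each condition is 1 library.

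SPEXI_LOCUS2768, a locus of the cathepsin list, had a ratio of 1.41 (1.18 to 1.66) in shallow LOCUS5543-high cells and 0.758 (0.737 to 0.780) in other shallow cells. In deep LOCUS5543-high cells its ratio was 0.386, also opposite to the 1.41 of the shallow ones.

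The other 5 cases set shallow against deep LOCUS5543-high cells. Procathepsin H had 1.67 in shallow and 0.409 in deep cells, and cysteine proteinase 1-like 1.25 in shallow and 0.253 in deep cells. The rule used both of these genes. Sodium/calcium exchanger regulatory protein 1 had 1.24 in shallow and 0.838 in deep cells, apoptosis-inducing factor 2.32 in shallow and 0.613 in deep cells, and GABA receptor-associated protein, an autophagy protein of the Atg8 family, 1.74 in shallow and 0.589 in deep cells. Apoptosis-inducing factor rested on 12 UMIs in the shallow challenged cells.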

How the results depend on the processing

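No paired analysis was possible because each condition has 1 library, and for the same reason no replicate could be left out. The share of LOCUS5543-high cells in the challenged library, 1.61%, was 2.88% at a minimum of 100 per 10000, 0.615% at a minimum of 300, 1.34% with at least 500 genes and 1.91% after thinning to 500 UMIs. The naïve share, 8.92%, was 10.7%, 6.50% and 7.48% at the first 3 of these settings. Their ratio, 0.181, was 0.270 at a minimum of 100, 0.0946 at 300 and 0.211 after thinning. Thinning to 1000 UMIs, which leaves out cells below that depth, gave 1.22% in the challenged and 4.10% in the naïve library, a ratio of 0.298, against 1.06%, 3.95% and 0.270 for the same cells unthinned. At a minimum of 300 the challenged medians were 871 UMIs and 547 genes, and thinning to 1000 UMIs gave 542 genes in the challenged and 670 in the naïve cells. The cluster with most LOCUS5543-high cells held 88.1% of them at a resolution of 0.4 and 49.8% at 1.2. At 1.2 another cluster, of 824 cells, held 489 of them and had a median level of 258 per 10000, above the minimum of the rule.

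The summed antimicrobial ratio, 8.29, was 6.24 with equal weight for each cell, 12.9 with TMM scaling and 5.75 in shallow cells. The summed ratio of protein synthesis, 1.73, was 1.57, 2.701 and 1.13 at these settings. The summed cathepsin ratio, 0.814, was above 1 at all 3 settings (1.25, 1.27 and 1.38). For melanization, 0.508, and the SPARC list, 0.551, it stayed below 1 with TMM (0.792 and 0.859) and was above 1 with equal weight (1.18 and 1.08) and in shallow cells (1.60 and 1.01). Of genes 2-fold higher in challenged cells, 129, TMM gave 574 and deep cells 57. Of the 543 lower, equal weight gave 195, TMM 259, a 50 CPM minimum 1017, shallow cells 145, deep cells 88 and a minimum of 300 per 10000 216. Against other shallow cells 4.19% of the genes compared were 2-fold higher, both loci of the rule among them, and 5.59% lower. TMM gave 0.9135% (17) and 15.05% (280), and 50 CPM 6.14% and 5.135% of 3369 genes.

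Some challenged over naïve ratios moved to above 1. Cysteine proteinase 1-like, 0.428, was 1.08 with equal weight and 1.25 in shallow cells. PPO2, 0.498, was 1.08 with equal weight, 1.47 in shallow cells and 1.05 at a minimum of 300. In shallow cells hemicentin 1-like, 0.325, was 1.06 and BLL4, 0.127, was 1.34. The cause of these shifts was not tested. Cells below 500 UMIs were not analysed here, and 100 CPM was 9.63 UMIs in the shallow challenged cells, which limits single genes there.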
